A study of Homo sapiens with 4 samples.

Results

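Collagen chain genes were examined in U87, an established human glioma line, as the 109 probe sets whose platform annotation names exactly 1 gene with a symbol of the form COL, a number, A, and a number. A probe set is a group of short array probes designed against 1 transcript or a few related ones. These probe sets belong to 43 genes, out of 41930 probe sets on the array and 18304 genes with a probe set of their own. They comprise 11 genes of fibrillar collagens (33 probe sets), 8 of basement membrane collagens (22 probe sets) and 24 of other collagens (54 probe sets). COL17A1 is represented by no probe set chosen in this way.

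The study set U87 cells with QK knocked down and given miR-20a by transduction (2 arrays) against U87 cells with QK knocked down and given miR-NT, a scrambled microRNA that targets no gene by design (2 arrays). QK (QKI) encodes an RNA-binding protein. Both groups carried the knockdown, and no array of U87 cells without it was analysed here, so every value below is a difference made on the background of reduced QK. Whether the 2 arrays of a group stand for separate cultures is not stated in the labels. A p-value here weighs a difference only against the spread of these arrays, and that spread may be technical.

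Collagens are extracellular proteins built from 3 chains wound into a helix. Fibrillar collagens (types I, II, III, V, XI, XXIV and XXVII) assemble into the cross-striated fibres of connective tissue, whereas type IV chains form the sheet-like network of basement membranes, with the collagens XV and XVIII nearby. The others include beaded filaments (type VI), collagens that sit on the surface of fibrils (the FACIT group, such as types XII and XVI), anchoring and network types (VII, VIII and X) and transmembrane types (such as XIII). Normal brain tissue holds little fibrillar collagen outside its vessels and coverings, while glioma lines in culture, U87 among them, are known to make collagen and other matrix proteins.

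The delivered microRNA belongs to the miR-17 family, whose members share a seed, the stretch of bases 2 to 8 that pairs with target transcripts. The mature sequences below, from RefSeq (GRCh38.p14), show the seed in capitals, so that the agent of the experiment can be set beside 2 relatives and beside miR-29b-3p, of a family well known for targeting collagen transcripts.
miR-20a-5p: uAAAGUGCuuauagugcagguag
miR-17-5p: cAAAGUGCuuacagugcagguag
miR-93-5p: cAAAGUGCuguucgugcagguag
miR-29b-3p: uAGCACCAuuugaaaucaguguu
The first 3 share the seed AAAGUGC, which 8 of the 2370 mature human microRNA names in that table carry, and miR-29b-3p has another seed. The sequence of miR-20a-5p lies at chr13:91351072-91351094 on the plus strand. Its own level was not analysed here.

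Log2 levels as deposited ran between 3.45 and 15.07, with 1 value per probe set and array and no detection calls. A level therefore cannot be told from background, and precision is limited by having 2 arrays per group. Probes differ in how well they bind, so the brightness of a probe set was used to choose 1 probe set per gene and to sort genes into a brighter and a dimmer part, and was not read as the abundance of a gene. The 4 arrays correlated at 0.991 to 0.996 over all probe sets. The difference between the 3′ and 5′ probe sets of ACTB, an array control for RNA quality, was 0.52 and 0.46 (log2) on the miR-20a arrays, against 0.20 and 0.35 on the miR-NT arrays. For GAPDH it was 0.27 and 0.28 on the miR-20a arrays, against 0.22 and 0.22 on the miR-NT arrays. The miR-20a arrays lay above the miR-NT arrays for both controls, and the part of this in the collagen values was not tested.

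Of the cell type markers, VIM, which glioma and other mesenchymal-like cells express strongly, averaged 14.66 on the miR-20a arrays and 14.68 on the miR-NT arrays. The other 4 mesenchymal markers had log2 differences of 0.18 (CD44), 0.20 (TNC), -0.21 (NES) and -0.26 (FN1). The astrocyte marker GFAP averaged 7.13 with miR-20a and 7.11 with miR-NT, where the array medians were 6.97 to 7.01. AQP4 averaged 5.30 with miR-20a and 5.44 with miR-NT, and SLC1A3 8.79 with miR-20a and 8.99 with miR-NT. The log2 levels of the 5 astrocyte markers summed to 32.94 and 33.39 on the miR-20a arrays, against 33.33 and 33.62 on the miR-NT arrays. Fibroblast and pericyte markers summed to 37.83 and 37.84 over 5 genes on the miR-20a arrays, against 38.02 and 38.13 on the miR-NT arrays. Of those 5 genes 1 had the higher mean with miR-20a. Such lower sums were not particular to that set. Endothelial markers summed to 35.00 and 35.04 with miR-20a, against 35.25 and 35.46 with miR-NT. Epithelial markers summed to 32.51 and 32.34 with miR-20a, against 32.76 and 32.82 with miR-NT. The sums of the astrocyte, blood and mesenchymal markers overlapped between the groups. None of the marker genes of the 6 cell types passed the threshold in limma over all genes.

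Between cells given miR-20a and cells given miR-NT, the collagens did not move as 1 group. COL5A2, a chain of type V collagen, rose 1.96-fold by 1 of its 2 probe sets, and COL1A1, which encodes the alpha 1 chain of type I, rose 1.69-fold by the probe set with its highest level, while 2 of its other probe sets had negative differences. Among basement membrane collagens COL4A2 had the largest positive difference, and among the others COL6A2 had the largest negative one and COL12A1 and COL16A1 the largest positive ones. None of these last 4 genes passed the threshold. In bulk RNA, fewer cells of a type and less RNA per cell cannot be told apart.

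The test was limma, fitted over the whole array with Benjamini-Hochberg adjustment and a threshold of 0.05. A first fit took all 41920 probe sets other than array controls, and a second took each gene by its brightest probe set (highest mean over the 4 arrays). Of the 109 collagen probe sets 1 was called higher, where 0.136% of all probe sets were called (0.119% higher and 0.0167% lower), and no collagen probe set was called lower. At an unadjusted p under 0.05, 20 collagen probe sets lay above and 12 below, 29.4% in all, beside 17.9% of all probe sets (9.46% above and 8.4% below). By gene 1 of 43 was called higher, where 0.426% of all genes were called (0.366% higher and 0.0601% lower), and no collagen gene was called lower. With an unadjusted p under 0.05, 10 collagen genes lay above and 4 below, 32.6% in all, beside 21.8% of all genes (12.6% above and 9.24% below). With the dimmest 40% of genes left out, limma called 6 of the 21 collagen genes still tested (COL1A1, COL5A2, COL4A2, COL12A1 and COL16A1 higher, COL6A2 lower), as part of 1239 calls among 10982 genes.

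The 2 miR-20a arrays did not overlap the 2 miR-NT arrays for 28 collagen probe sets that were higher and 34 that were lower, 56.9% in all, beside 48.9% of all probe sets (21.7% higher and 27.2% lower). By gene the groups did not overlap for 12 higher and 13 lower, 58.1%, beside 52.5% of all genes (25.5% higher and 27% lower). The median log2 difference was -0.04 over the collagen probe sets and -0.02 over all probe sets. By gene, 22 differences were positive and 21 negative, and quantile normalization gave 20 and 23. An exact permutation test of 2 arrays against 2 cannot go below p = 0.333, so no single value could pass it.

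**Figure D1:**
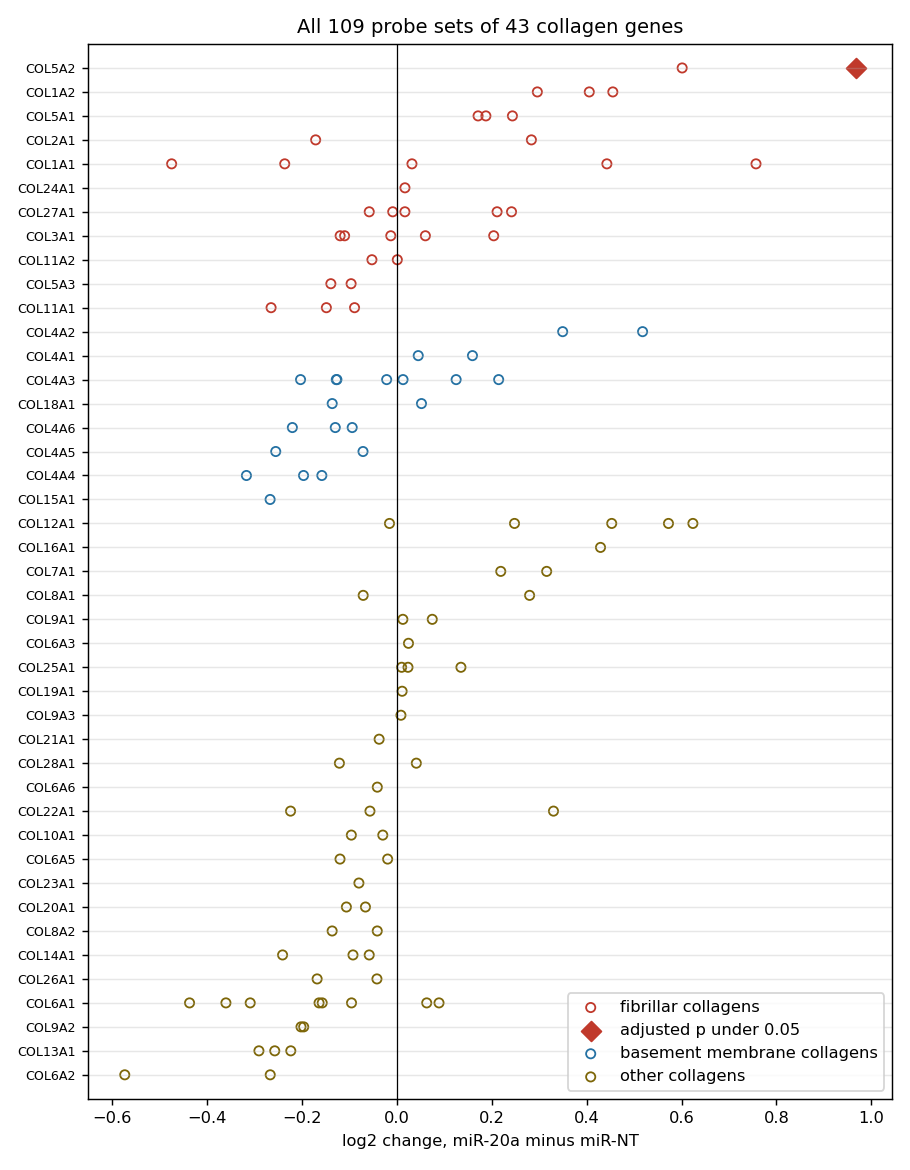
The log2 difference (miR-20a minus miR-NT, horizontal axis) of each of the 109 probe sets, 1 row per gene, grouped into fibrillar, basement membrane and other collagens. The filled diamond marks COL5A2 221730_at, at 0.97, the 1 probe set past the threshold in limma, and the 5 open circles of COL1A1 lie from -0.48 to 0.76.

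By gene, the fibrillar collagens had a median log2 difference of 0.24, with 8 of 11 positive, beside a median of -0.01 over all genes. The 11 genes ranged from -0.11 for COL3A1 to 0.76 for COL1A1, and at an unadjusted p under 0.05 5 were above and 0 below, beside 12.6% of all genes above and 9.24% below. Relative to each gene's miR-NT mean, the median over the fibrillar genes was 0.24 and 0.15 on the miR-20a arrays, against 0.0038 and -0.0038 on the miR-NT arrays. Since that mean is of the same 2 miR-NT arrays, their values mirror each other around 0 by construction, here and for the other classes below. The fibrillar median rested on the probe set taken for each gene: it was 0.02 over the 33 fibrillar probe sets, 0.06 with the mean of each gene's probe sets and -0.05 with the probe set of second highest level. Quantile normalization took it to 0.12, with 7 genes positive and 4 negative.

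The basement membrane collagens had a median log2 difference of -0.13, with 3 of 8 positive, and ranged from -0.27 for COL15A1 to 0.52 for COL4A2. Relative to each gene's miR-NT mean, the class median was -0.17 and -0.02 on the miR-20a arrays, against 0.015 and -0.015 on the miR-NT arrays. The other collagens had a median of -0.04, with 11 of 24 positive, and ranged from -0.57 for COL6A2 to 0.57 for COL12A1. Relative to each gene's miR-NT mean, their class median was -0.08 and -0.0042 on the miR-20a arrays, against 0.0036 and -0.0036 on the miR-NT arrays. Within the other collagens, the median was -0.01 over 6 beaded-filament genes, -0.01 over 10 FACIT genes, 0.09 over 4 network and anchoring genes and -0.08 over 3 transmembrane genes. The ranges of the 3 classes overlapped, and no test between classes was made.

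Brightness moved with direction over the whole array. Of the 9152 genes whose probe set was brighter than the median, 5342 had positive and 3810 negative differences, with a median of 0.04, whereas below it 3266 were positive and 5886 negative, with a median of -0.05. Of the collagen genes 18 lay in the brighter part, 12 positive and 6 negative with a median of 0.14, and 25 in the dimmer part, 10 positive and 15 negative with a median of -0.04. In the brighter part were 7 fibrillar genes, with a median of 0.24 and 6 of them positive, and 1 basement membrane gene, COL4A2. In the dimmer part, the 4 fibrillar genes had a median of -0.04 and the 7 basement membrane genes one of -0.14. The part of probe brightness in the class medians was not tested.

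**Figure D2:**
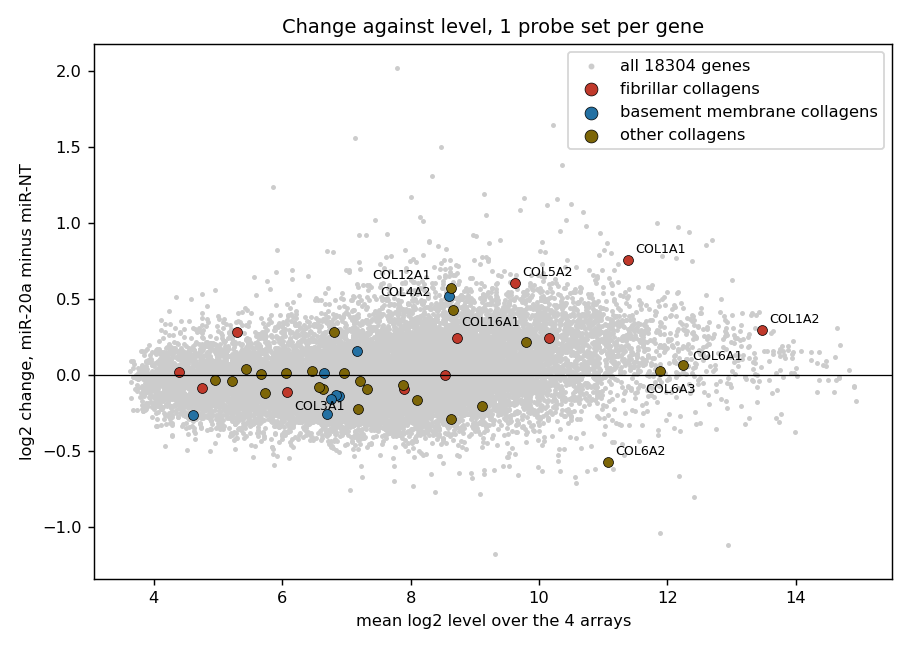
The log2 difference of each gene (miR-20a minus miR-NT, vertical axis) against its mean log2 level over the 4 arrays (horizontal axis), with all 18304 genes in grey and the 43 collagen genes coloured by class. COL1A1, at 0.76, and COL6A2, at -0.57, stand at opposite edges of the collagens, and the basement membrane genes other than COL4A2 lie between -0.27 and 0.16.

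Among the fibrillar collagens, type V chains join type I chains in mixed fibrils and limit their width. COL5A2, which encodes the alpha 2 chain, read 10.04 and 9.91 on the miR-20a arrays, against 9.06 and 8.96 on the miR-NT arrays, by probe set 221730_at. The groups did not overlap, and the log2 difference was 0.97 ± 0.10 (SE), 1.96-fold, with an adjusted p of 0.0345 in limma over all probe sets. Its other probe set, 221729_at, read 10.14 and 9.71 on the miR-20a arrays, against 9.36 and 9.28 on the miR-NT arrays. Both miR-20a arrays again lay above both miR-NT arrays, but they differed from each other by more than the miR-NT arrays did. This log2 difference was 0.60 ± 0.15 (SE), 1.52-fold, with an adjusted p of 0.148 by probe set, and 0.0976 in limma over all genes, where 221729_at stands for the gene. The COL5A2 call did not hold with the replicate block, without the first miR-20a array or without either miR-NT array. Over all alternatives the log2 difference by 221730_at lay between 0.87 and 1.03.

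COL5A1, the alpha 1 chain of type V, had 3 probe sets, all of them above on both miR-20a arrays and none past the threshold. The one with the highest level read 10.31 and 10.24 on the miR-20a arrays, against 10.03 and 10.03 on the miR-NT arrays. Its log2 difference was 0.24 ± 0.09 (SE), 1.18-fold, and those of the other 2 were 0.19 and 0.17, with adjusted p-values in limma of 0.232 to 0.46. The 0.24 became 0.12 under quantile normalization and under cyclic loess. COL5A3, the third type V chain, had differences of -0.10 and -0.14 by its 2 probe sets.

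Type I collagen, the main fibre of skin, bone and tendon, is made of 2 alpha 1 chains and 1 alpha 2 chain. For COL1A1, probe set 1556499_s_at read 11.85 and 11.67 on the miR-20a arrays, against 11.01 ± 0.04 (SD, n = 2; 10.98 and 11.04) on the miR-NT arrays. The groups were apart by more than either group's spread, with a log2 difference of 0.76 ± 0.10 (SE), 1.69-fold. In limma over all genes, where this probe set stands for COL1A1, the adjusted p was 0.0449, and over all probe sets it was 0.0784. By gene, the COL1A1 call did not hold under quantile normalization, under cyclic loess or with the replicate block. It was also lost with the mean of the gene's probe sets and with the probe set of second highest level. Nor did it hold without the first miR-20a array or without either miR-NT array. Fits without a miR-NT array lost the calls of all genes, not of COL1A1 alone. Over all alternatives, other choices of probe set among them, the gene's log2 difference lay between 0.10 and 0.85.

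The probe sets of COL1A1 did not move together. By 202310_s_at the gene read 11.50 and 11.44 on the miR-20a arrays, against 11.19 and 10.87 on the miR-NT arrays, a log2 difference of 0.44 with an adjusted p of 0.17 in limma. By 202312_s_at it read 7.58 and 7.46 on the miR-20a arrays, against 7.93 and 8.06 on the miR-NT arrays, a difference of -0.48, or 1.39-fold lower, with an adjusted p of 0.138 in limma. Both pairs of arrays were apart, in opposite directions. The other 2 overlapped between groups, with differences of 0.03 for 217430_x_at and -0.24 for 202311_s_at, so the 5 probe sets spanned 1.23 on the log2 scale, the widest of any collagen gene. With the mean of its probe sets COL1A1 had a difference of 0.10 and an adjusted p of 0.525 in limma. Probe sets with the suffix _s_at match several transcripts and those with _x_at may bind unrelated ones, and probe positions were not used here.

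COL1A2, the alpha 2 chain, was above on both miR-20a arrays by all 3 of its probe sets. Probe set 202404_s_at read 11.08 and 10.98 on the miR-20a arrays, against 10.50 and 10.65 on the miR-NT arrays, a log2 difference of 0.46 ± 0.10 (SE) and 1.37-fold. Probe set 202403_s_at, the brightest, read 13.69 and 13.55 on the miR-20a arrays, against 13.40 and 13.26 on the miR-NT arrays, a difference of 0.30 that became 0.14 under cyclic loess. The third, 229218_at, read 9.04 and 8.96 on the miR-20a arrays, against 8.39 and 8.80 on the miR-NT arrays, a difference of 0.41. No pair overlapped, and none passed the threshold in limma over all probe sets (adjusted p = 0.138 to 0.222), nor did the gene over all genes (0.159).

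**Figure D3:**
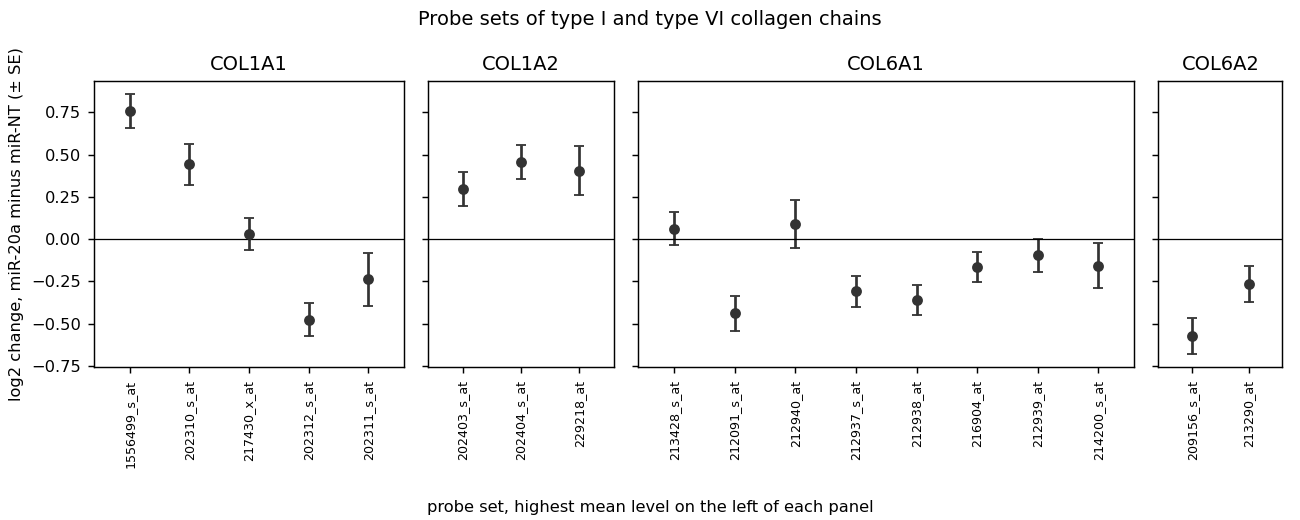
The log2 difference (miR-20a minus miR-NT, vertical axis) with its SE for every probe set of COL1A1, COL1A2, COL6A1 and COL6A2, with the highest mean level on the left of each panel. COL1A1 runs from 0.76 to -0.48, the 3 probe sets of COL1A2 lie between 0.30 and 0.46, and both of COL6A2 lie below 0.

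COL3A1, the chain of type III collagen, which accompanies type I in skin and vessels, had 5 probe sets with differences from -0.12 to 0.20. By 201852_x_at it read 5.90 and 6.14 on the miR-20a arrays, against 6.25 and 6.02 on the miR-NT arrays, so the groups overlapped (log2 difference -0.11, adjusted p = 0.648 in limma over all genes). COL2A1, the cartilage type II chain, read 5.40 and 5.48 on the miR-20a arrays, against 5.23 and 5.09 on the miR-NT arrays, by 1 probe set, a difference of 0.28. Its other probe set had a difference of -0.17, and neither passed.

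None of the remaining fibrillar genes passed the threshold. COL27A1 had 0.24 (adjusted p = 0.262 in limma over all genes), with 3 of its 5 probe sets positive. COL11A1, a type XI chain of cartilage fibrils, had -0.09, with all 3 of its probe sets negative. COL24A1 had 0.02 and COL11A2 0.00061, and the second of these turned negative under quantile normalization and cyclic loess.

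Among the basement membrane collagens, COL4A1 and COL4A2 encode the chains of the most widespread type IV network. COL4A2 read 8.85 and 8.87 on the miR-20a arrays, against 8.41 and 8.28 on the miR-NT arrays, by 211964_at. The groups were well apart, with a log2 difference of 0.52 ± 0.09 (SE), 1.43-fold, and an adjusted p of 0.124 in limma over all probe sets and 0.0715 over all genes. Probe set 211966_at read 7.84 and 7.90 on the miR-20a arrays, against 7.60 and 7.45 on the miR-NT arrays, a difference of 0.35 and 1.27-fold, likewise without overlap.

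COL4A1 read 7.28 and 7.21 on the miR-20a arrays, against 7.01 and 7.16 on the miR-NT arrays, by 211980_at. The difference of 0.16 (adjusted p = 0.374 in limma over all genes) had the sign of that of COL4A2, and the second probe set had 0.04. Without the first miR-NT array the 0.16 was 0.08. The 2 genes lie head to head on chromosome 13 with 126 bases between their starts, a stretch known to act as a promoter for both. It is shown, from RefSeq (GRCh38.p14), because the pair shares it. It occupies chr13:110307158-110307283 and is given on the plus strand, from the COL4A1 side to the COL4A2 side, with 1 CCAAT box and 1 GC box in capitals.
COL4A1 to COL4A2: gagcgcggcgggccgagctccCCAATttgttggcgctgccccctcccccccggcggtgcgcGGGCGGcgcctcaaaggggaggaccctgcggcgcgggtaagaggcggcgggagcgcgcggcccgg
On either strand, CCAAT occurred in the 250 bases before the start in 33.0% of 27305 promoters and in 8 of the 31 collagen promoters matched (25.8%). The GC box GGGCGG occurred in 42.3% of all promoters and in 18 of the 31 (58.1%). These matches describe letters only.

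Of the other 6 basement membrane genes 5 had negative differences. COL15A1, a proteoglycan-type collagen of the outer basement membrane, read 4.56 and 4.38 on the miR-20a arrays, against 4.74 and 4.74 on the miR-NT arrays. The groups did not overlap, and the log2 difference was -0.27 (adjusted p = 0.179 in limma over all genes), or -0.18 without the second miR-20a array. COL4A5, mutated in Alport syndrome of the kidney, read 6.64 and 6.50 on the miR-20a arrays, against 6.92 and 6.73 on the miR-NT arrays, a difference of -0.26 (adjusted p = 0.221 in limma) without overlap, and its second probe set had -0.07. Without the first miR-NT array the -0.26 was -0.16. COL18A1, the source of endostatin, read 6.80 and 6.85 on the miR-20a arrays, against 7.01 and 6.91 on the miR-NT arrays, a difference of -0.14, while its second probe set had 0.05.

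COL4A3, COL4A4 and COL4A6 encode type IV chains of more restricted tissues, among them, for COL4A3 and COL4A4, the filter of the kidney. All 3 probe sets of COL4A4 and all 3 of COL4A6 had negative differences, with -0.16 and -0.13 by the probe set of highest level. The 7 probe sets of COL4A3 ran from -0.20 to 0.21, with 3 positive. None of these genes passed the threshold. Of the type IV chains alone, 3 of 6 genes were positive and the median was -0.06, and the split of 3 positive and 5 negative genes in the whole class was the same under quantile normalization, median centring and cyclic loess.

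**Figure D4:**
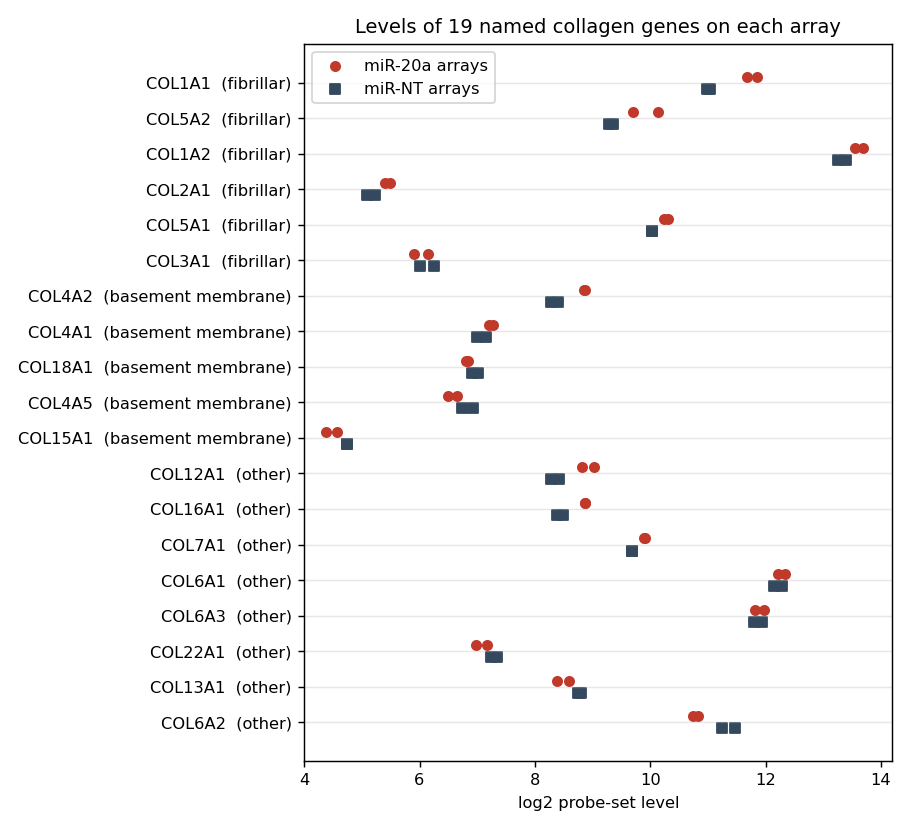
Log2 levels (horizontal axis) of 19 named collagen genes, by the probe set of highest mean level, on the 2 miR-20a arrays (circles) and the 2 miR-NT arrays (squares). The groups overlap for COL3A1, COL6A1 and COL6A3 and are apart for all the other genes shown, some of them named for a small p-value in limma. Over all genes, the groups did not overlap for 52.5%.

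Type VI collagen forms beaded filaments around cells from the products of COL6A1, COL6A2 and COL6A3. COL6A2 read 10.82 and 10.75 on the miR-20a arrays, against 11.47 and 11.25 on the miR-NT arrays, by 209156_s_at. Both miR-20a arrays lay below both miR-NT arrays, with a log2 difference of -0.57 ± 0.11 (SE), 1.49-fold lower, and an adjusted p of 0.129 in limma over all probe sets and 0.0769 over all genes. After quantile normalization it was -0.73 with an adjusted p of 0.0416 in limma, and COL6A2 was then the 1 collagen gene called, while COL1A1 was not (0.0576). The calls over all genes were 67 higher and 11 lower with the deposited values and 73 higher and 38 lower after quantile normalization.

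The second COL6A2 probe set, 213290_at, read 8.20 and 8.01 on the miR-20a arrays, against 8.44 and 8.31 on the miR-NT arrays, a difference of -0.27 without overlap. COL6A1 read 12.34 and 12.21 on the miR-20a arrays, against 12.28 and 12.15 on the miR-NT arrays, by its brightest probe set, so the groups overlapped (log2 difference 0.06, which turned to -0.09 under quantile normalization and under cyclic loess). By 212091_s_at it read 10.14 and 10.25 on the miR-20a arrays, against 10.72 and 10.55 on the miR-NT arrays, a difference of -0.44 (adjusted p = 0.143 in limma over all probe sets). Of its 8 probe sets 6 had negative differences, as far as -0.44, and 2 positive ones, up to 0.09.

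COL6A3, with 1 probe set, read 11.97 and 11.82 on the miR-20a arrays, against 11.95 and 11.79 on the miR-NT arrays. The groups overlapped, and the difference of 0.02 turned to -0.15 under quantile normalization and to -0.12 under cyclic loess. Over the 16 beaded-filament probe sets 12 were negative, with a median of -0.12, where 23158 of all 41920 probe sets were negative. In limma 5 of the 16 lay below at an unadjusted p under 0.05, beside 8.4% of all probe sets. Of the 16, 8 belong to COL6A1 alone, so they are not separate members. By gene 3 of 6 were negative, with a median of -0.0087, and 1 lay below at that p, beside 9.24% of all genes. COL6A1 and COL6A2 are neighbours on chromosome 21 with no protein-coding gene starting between them. The 250 bases before the COL6A2 start, from RefSeq (GRCh38.p14, chr21:46097862-46098111, plus strand), are shown because COL6A2 had the most negative difference of any collagen. Its 4 GC boxes (GGGCGG on either strand) and 1 TATAAA are in capitals.
COL6A2 promoter: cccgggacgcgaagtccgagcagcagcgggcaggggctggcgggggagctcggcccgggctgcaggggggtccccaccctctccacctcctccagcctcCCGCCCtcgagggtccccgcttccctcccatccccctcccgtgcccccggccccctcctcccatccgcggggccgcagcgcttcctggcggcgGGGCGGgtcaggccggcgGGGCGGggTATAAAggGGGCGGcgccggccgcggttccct
TATAAA occurred on either strand in 11.1% of all promoters and in 4 of the 31 collagen promoters (12.9%).

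COL12A1 and COL16A1 encode FACIT collagens, which decorate the surface of fibrils. COL12A1 read 9.03 and 8.81 on the miR-20a arrays, against 8.42 and 8.28 on the miR-NT arrays, by 225664_at. The groups were apart, with a log2 difference of 0.57 ± 0.11 (SE), 1.49-fold, and an adjusted p of 0.134 in limma over all probe sets and 0.0818 over all genes. Of its other 4 probe sets 3 were positive, at 0.62, 0.45 and 0.25, and 1 was at -0.02. By the probe set with 0.62, 231766_s_at, it read 8.05 and 7.60 on the miR-20a arrays, against 7.31 and 7.09 on the miR-NT arrays.

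COL16A1, with 1 probe set, read 8.86 and 8.87 on the miR-20a arrays, against 8.50 and 8.38 on the miR-NT arrays. The groups did not overlap, and the log2 difference was 0.43 ± 0.09 (SE), 1.35-fold, with an adjusted p of 0.138 in limma over all probe sets and 0.0841 over all genes. The 250 bases before each start, from RefSeq (GRCh38.p14), are shown because these 2 FACIT genes had the most positive differences among the other collagens. They lie at chr6:75206054-75206303 (COL12A1) and chr1:31704018-31704267 (COL16A1), both read on the minus strand, and capitals mark GC boxes and, in COL16A1, the SMAD-type element CAGAC.
COL12A1 promoter: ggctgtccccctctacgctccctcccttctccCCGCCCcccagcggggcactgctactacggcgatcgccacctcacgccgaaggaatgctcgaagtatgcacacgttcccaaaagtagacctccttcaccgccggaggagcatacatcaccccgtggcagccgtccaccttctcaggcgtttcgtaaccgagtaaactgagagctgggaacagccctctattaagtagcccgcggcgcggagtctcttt
COL16A1 promoter: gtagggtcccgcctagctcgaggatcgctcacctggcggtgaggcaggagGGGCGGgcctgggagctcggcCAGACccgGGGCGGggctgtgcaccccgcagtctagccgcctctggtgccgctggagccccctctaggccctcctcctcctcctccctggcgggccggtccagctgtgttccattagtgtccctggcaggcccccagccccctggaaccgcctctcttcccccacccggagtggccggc
CAGAC occurred on either strand in 37.8% of all promoters and in 11 of the 31 collagen promoters (35.5%).

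COL7A1, the anchoring fibril chain that ties epidermis to dermis, was above on both miR-20a arrays by both probe sets. It read 9.92 and 9.89 on the miR-20a arrays, against 9.69 and 9.68 on the miR-NT arrays, by 217312_s_at, a log2 difference of 0.22 (adjusted p = 0.193 in limma over all genes), and the difference by 204136_at was 0.32. The 0.22 became 0.11 under quantile normalization and under cyclic loess. COL13A1, a transmembrane collagen of cell junctions, was below on both miR-20a arrays, at 8.59 and 8.38, against 8.75 and 8.80 on the miR-NT arrays, by 211343_s_at. Its difference was -0.29 (adjusted p = 0.169 in limma over all genes), and the other 2 probe sets had -0.26 and -0.22. Without the second miR-20a array the -0.29 was -0.19.

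COL22A1, a FACIT collagen of tissue junctions, read 6.97 and 7.17 on the miR-20a arrays, against 7.24 and 7.35 on the miR-NT arrays, by 242326_at, a difference of -0.22. By 243301_at it read 4.53 and 4.78 on the miR-20a arrays, against 4.23 and 4.43 on the miR-NT arrays, a difference of 0.33, so its probe sets went opposite ways. The remaining 16 genes among the other collagens had differences from -0.20 (COL9A2) to 0.28 (COL8A1), with adjusted p-values in limma over all genes of 0.195 to 0.975. Besides those 2 they were COL6A5, COL6A6, COL9A1, COL9A3, COL10A1, COL14A1, COL8A2, COL19A1, COL20A1, COL21A1, COL23A1, COL25A1, COL26A1 and COL28A1.

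Over the 34 collagen genes with several probe sets, 8 had all of them positive, 14 all negative and 12 a mixture. The mixed genes were 5 of 10 fibrillar, 2 of 7 basement membrane and 5 of 17 other genes with several probe sets. Among neighbours on a chromosome, COL3A1 and COL5A2 adjoin on chromosome 2, with differences of -0.11 and 0.60, and COL6A1 and COL6A2 had 0.06 and -0.57. By these probe sets the groups overlapped for COL3A1 and COL6A1 and not for COL5A2 and COL6A2. By 5 of its other probe sets COL6A1 was lower without overlap, in the direction of COL6A2, where 27.2% of all probe sets were lower without overlap. Those 5 read 1 gene on the same arrays, so they do not count separately. The head-to-head pairs COL4A4 and COL4A3 (-0.16 and 0.01) and COL4A6 and COL4A5 (-0.13 and -0.26) have 418 and 379 bases between their starts.

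Collagen chains are hydroxylated and folded in the endoplasmic reticulum, carried out in large vesicles, trimmed of their propeptides, cross-linked outside the cell, bound by receptors and broken down by proteases. Of 67 listed genes of these steps 64 were measured. In limma over all genes 1 of the 64 was called, in the higher direction, where 0.426% of all genes were called (0.366% higher). Before adjustment, 13 lay above and 7 below at p under 0.05, 31.3% in all beside 21.8% of all genes. Of the 64 genes 47 were brighter than the median of all genes. In that brighter part 29.8% of all genes had a p under 0.05 in limma, and in the dimmer part 13.9%. The 31.3% is over pathway genes of both parts, so neither share is a like-for-like match for it. The part of brightness in the pathway share was not tested. The differences were positive for 35 and negative for 29, with a median of 0.01, and quantile normalization gave 27 positive and 37 negative.

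The gene that rose was LOX, lysyl oxidase, which starts the cross-linking of collagen and elastin. It read 11.47 and 11.37 on the miR-20a arrays, against 10.60 and 10.60 on the miR-NT arrays. The groups were far apart relative to their spread, with a log2 difference of 0.82 ± 0.09 (SE), 1.77-fold, and an adjusted p of 0.0251 in limma over all genes. All 3 of its probe sets were positive. The call did not hold with the replicate block or without either miR-NT array. Fits without a miR-NT array lost the calls of all genes, not of LOX alone. Over all alternatives the log2 difference of LOX lay between 0.66 and 0.87.

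By the brightest probe set all 7 cross-linking genes had positive differences, with a median of 0.11. Under quantile normalization and cyclic loess LOXL1 and TGM2 turned negative. Probe sets were mixed for LOXL2 (2 positive, 2 negative), LOXL4 (1 and 1), PXDN (1 and 1) and TGM2 (1 and 3). Those of LOX, LOXL1 and LOXL3 were all positive. LOXL3, a relative of LOX, averaged 12.03 ± 0.04 on the miR-20a arrays and 11.46 ± 0.09 on the miR-NT arrays (SD, n = 2 each), a difference of 0.57 (adjusted p = 0.0627 in limma) without overlap. Of 15 genes of hydroxylation and folding 8 were positive (6 after quantile normalization). P4HA2, a subunit of prolyl 4-hydroxylase, read 11.47 and 11.39 on the miR-20a arrays, against 10.96 and 10.97 on the miR-NT arrays, a difference of 0.46 (adjusted p = 0.078 in limma), or 0.30 after quantile normalization. FKBP10, a folding helper of the endoplasmic reticulum, had -0.30 (adjusted p = 0.125 in limma).

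Of 8 secretion genes 7 were positive (5 after quantile normalization), with a median of 0.16. KLHL12, an adaptor of the ligase that enlarges transport coats, had 0.50 by 1 probe set and -0.02 by the other, and SEC23A, a coat subunit, had 0.48 by 1 probe set and 0.06 by the other. Without the first miR-NT array the 0.48 of SEC23A was 0.25. Of 8 genes of propeptide removal 3 were positive. PCOLCE, an enhancer of the C-proteinase, read 10.99 and 10.91 on the miR-20a arrays, against 11.41 and 11.37 on the miR-NT arrays, a difference of -0.44 (adjusted p = 0.0819 in limma), and ADAMTS2, an N-proteinase, had 0.25 by 1 probe set and 0.06 by the other, where the groups overlapped.

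Of 7 fibril partners 5 were negative. DCN, decorin, which coats fibrils, read 8.54 and 8.70 on the miR-20a arrays, against 9.05 and 9.16 on the miR-NT arrays, a difference of -0.49 (adjusted p = 0.084 in limma), with 4 of 5 probe sets negative. SPARC, a collagen-binding protein, read 12.62 and 12.57 on the miR-20a arrays, against 12.21 and 12.20 on the miR-NT arrays, a difference of 0.39 (adjusted p = 0.0878 in limma), or 0.25 after quantile normalization. For both the groups were apart, in opposite directions.

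Of 9 receptors 5 were positive, with a median of 0.02, and quantile normalization gave 3, with a median of -0.03. ITGB1, the beta 1 subunit of the collagen-binding integrins, read 13.15 and 13.03 on the miR-20a arrays, against 12.54 and 12.63 on the miR-NT arrays, a difference of 0.50 (adjusted p = 0.0773 in limma), with 6 of 7 probe sets positive. LAIR1, an inhibitory receptor of immune cells, had -0.14. Of 10 genes of breakdown and its inhibition 7 were negative. TIMP1, an inhibitor of matrix metalloproteinases, read 13.01 and 13.10 on the miR-20a arrays, against 13.39 and 13.37 on the miR-NT arrays, a difference of -0.33 (adjusted p = 0.113 in limma), and MMP13, a collagenase, had -0.27.

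**Figure D5:**
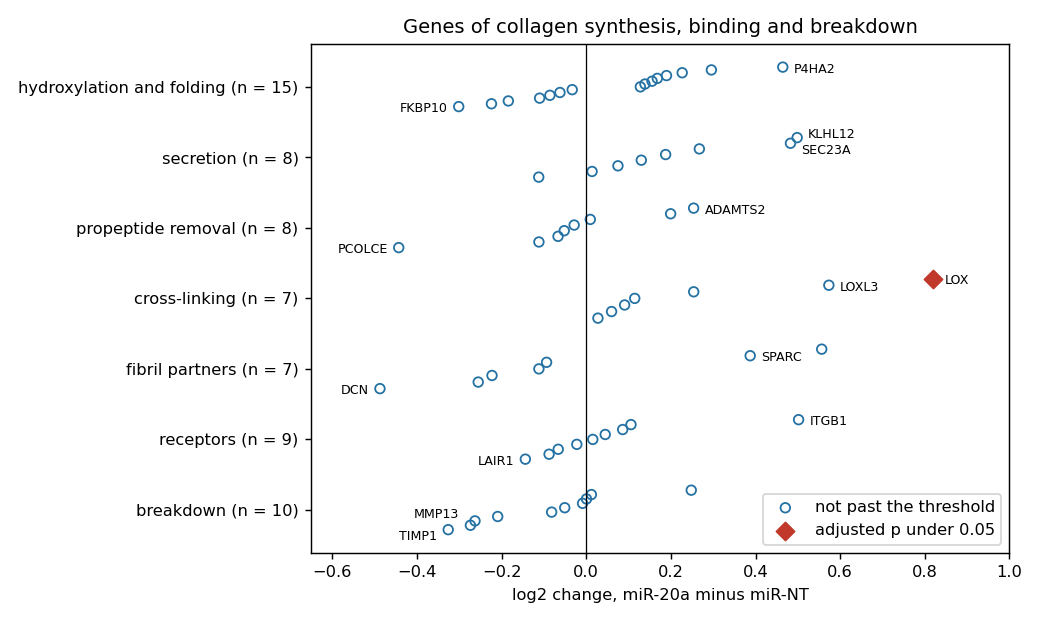
The log2 difference (miR-20a minus miR-NT, horizontal axis) of 64 genes of collagen synthesis, binding and breakdown, 1 row per role, with the number of genes in each. Each gene is given by its brightest probe set. LOX, at 0.82, is the filled diamond past the threshold in limma, and DCN and PCOLCE lie farthest below 0. All 7 cross-linking genes lie above 0 with the deposited values (5 of 7 after quantile normalization), although other probe sets of some of them were negative.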

How the data were processed

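Total RNA of 4 samples (2 miR-20a, 2 miR-NT) was labelled with biotin from 6 µg by the Affymetrix protocol, per the labels' protocols, and each was read on 1 array. The table the authors deposited holds log2 levels, made with affy (version not stated) per the submitters' processing notes. How background was corrected and arrays were normalized and summarized is not given in the sources used. Base 2 was inferred from the highest value, 15.07.

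From these values limma 3.58.1 in R 4.3.3 was fitted (lmFit and eBayes, intercept and group, two-sided, no filter on low values) over 41920 probe sets, leaving out 10 controls, and over 18304 genes, each by its brightest probe set. Its prior had 4.60 degrees of freedom by probe set and 4.73 by gene. Log2 differences are miR-20a minus miR-NT, and folds are 2 to that power. The platform annotation gave 1 gene for 37465 probe sets, several for 1727 and none for 2728. All 43 collagen genes were found in RefSeq by Entrez ID. The pathway genes COLGALT2, CTAGE5 and DDR1 were not matched. The fits were tested on simulated data.

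Named with values were collagen genes past the threshold, 10 common chains, the 5 smallest p-values per class, the 3 genes with the widest spread over probe sets, and, of the pathway list, the genes past the threshold and the 2 smallest p-values per role. The members and lists were chosen with earlier results of these data known. Alternatives were the normalization, a filter on low values, eBayes settings, the threshold, the joining of probe sets, the class membership, a replicate block and leaving out each array.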

Additional observations from a re-analysis of the deposited data

How the results depend on the processing

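With 2 arrays per group, calls moved with the settings. Of 399 single-gene values under the alternatives, 332 stayed on their side of the threshold with the same sign. Of the rest, 15 lost the call, 35 gained it and 17 turned sign. The replicate block, the filter and the eBayes settings leave each log2 difference as it is, so no sign could turn under them. Median centring shifts all differences alike. The count of turned signs therefore does not measure how stable the directions were. The 15 all belong to COL1A1 and LOX by gene and COL5A2 by 221730_at, the only named results called at the main settings. Values of the other named genes had no call to lose, so the 332 do not measure how stable the calls were. Depth is not defined for these arrays, and without detection calls the signal over background could not be given. In limma, the replicate block left 0 collagen probe sets, 0 collagen genes and 0 pathway genes called (23, 11 and 17 at an unadjusted p under 0.05). Same-numbered arrays deviated with a correlation of -0.12 over 41920 probe sets, so the crossed replicate block was added after seeing the data, and it also called 0, 0 and 0 (29, 14 and 21 unadjusted). A threshold of 0.01 called 0, 0 and 0 (32, 14 and 20 unadjusted), and one of 0.1 called 2, 6 and 8, among 159 of all 41920 probe sets and 904 of all 18304 genes. Leaving out features below the 40th percentile gave 3, 6 and 11, from fewer features tested, among 334 of 25152 probe sets and 1239 of 10982 genes. Trend with robust eBayes gave 8, 6 and 12, among 957 of all probe sets and 1212 of all genes, and the cause was not tested. Leaving out probe sets with the suffix _x_at or _s_at gave 1 probe set. Cyclic loess called 0 collagen genes (10 unadjusted), and quantile normalization, median centring and the mean of all probe sets called 2 pathway genes each. Leaving out each array in turn gave 0 to 1 probe sets, 0 to 3 collagen genes and 0 to 1 pathway genes, and limma called 0 of all 18304 genes without either miR-NT array. In those fits with 0 calls, 20 to 29 probe sets, 8 to 10 collagen genes and 14 to 15 pathway genes had an unadjusted p under 0.05, and the lone array is assumed to vary like the other group.

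The fibrillar median was 0.12 under quantile normalization and under cyclic loess, 0.056 with the mean of all probe sets, -0.053 with the second probe set and 0.14 to 0.24 without each array. The basement membrane median was 0.52 after the filter, which left 1 gene, -0.059 for type IV chains alone and -0.17 to -0.021 without each array, and that of the other collagens was -0.079 to -0.0042 without each array. COL6A1 turned to -0.093 under quantile normalization, -0.086 under cyclic loess, -0.17 with the mean and -0.44 with the second probe set, and lay between -0.0033 and 0.13 without each array. COL6A3 turned to -0.15 and -0.12 under those 2 normalizations and lay between -0.053 and 0.10 without each array. COL3A1 turned to 0.0040 with the mean and lay between -0.23 and 0.0095 without each array. COL22A1 turned to 0.016 with the mean, and the second probe set gave 0.052 for COL18A1, -0.17 for COL2A1 and -0.024 for KLHL12. Except where a value above shows it, the cause was not tested.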
